A study of Mus musculus with 8 samples.

Results

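The genes described here are the major urinary protein genes (Mup) and a set of liver genes of the growth hormone (GH) and STAT5 pathway, measured by RNA-seq of the liver in 4 WT and 4 N-LKO mice. The Mup genes were taken by symbol, as Mup followed by a number, which left out 9 Mup pseudogene rows. This gave 20 Mup genes. With 21 GH-STAT5 genes, 41 of the 19642 genes in the table were members, and all 41 were among the 14214 genes left by edgeR's low-count filter. Mup4 and Mup5 were not analysed here.

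In N-LKO mice Nus1 was deleted in the liver. Nus1 encodes NgBR, a subunit of the cis-prenyltransferase that makes dolichol for protein glycosylation. The deletion combined loxP-flanked NgBR alleles with a Cre transgene driven by the albumin promoter. The controls are labelled WT, and whether they carried Cre or loxP alleles was not given in the sources used here. All mice were male, on the C57BL6 background and fed standard chow (CD). For the time on CD, sample titles and the study's legend for these livers state 8 weeks, and treatment labels 16 weeks. One library of total RNA without rRNA was sequenced per mouse, with 14688404 to 18585412 counts per library.

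Major urinary proteins are small lipocalins made by hepatocytes, secreted into blood and passed into urine, where they bind volatile pheromones. Their genes lie side by side as a cluster of closely related copies. In male mice GH is secreted in pulses, and each pulse activates its receptor Ghr, the kinase Jak2 and the transcription factor STAT5b in hepatocytes, which maintain Mup and other male-biased liver genes. Socs2 and Cish are STAT5 targets that damp the same signal, Bcl6 and Cux2 encode repressors that act on STAT5 target genes, and Igf1, Igfals and Igfbp3 encode the circulating IGF1 complex.

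Values per mouse are normalised read counts in CPM, that is scaled to the library size after TMM scaling. Differences are log2 fold changes of N-LKO over WT from edgeR's quasi-likelihood test, with their standard error (SE), and a gene was called at a Benjamini-Hochberg adjusted p under 0.05 over all 14214 genes tested. At that threshold 148 genes were called, 1.04% of those tested. Of all genes tested, 0.823% were called higher and 0.218% lower in N-LKO livers. Nus1 was at 82.0, 90.4, 90.5 and 89.7 CPM in WT livers and at 33.3, 36.2, 38.8 and 38.7 CPM in N-LKO livers. No N-LKO liver reached the WT range, and the log2 fold change was -1.26 (SE 0.0748, adjusted p = 3.06e-05 by edgeR). In bulk liver, fewer cells of a type and less RNA per cell cannot be told apart.

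The tissue label fits its markers: the summed level of 9 hepatocyte markers was 91380 to 115300 CPM in WT and 91570 to 109400 CPM in N-LKO livers, and none was called by edgeR, by DESeq2 or at an unadjusted p under 0.05. Some markers of other liver cells were higher in N-LKO livers. The 8 fibroblast and stellate cell markers summed to 190 to 275 CPM in WT and 270 to 376 CPM in N-LKO livers, ranges that overlap, with 2 called higher (the matrix genes Col1a1 and Lum). The stellate cell markers Lrat and Reln of that list were at log2 fold changes of -0.15 (SE 0.202) and 0.09 (SE 0.178) and were not called. The 6 cholangiocyte markers summed to 23.1 to 44.8 CPM in WT and 52.1 to 131.6 CPM in N-LKO livers, with 2 called higher (Epcam and Spp1). Spp1 made up most of that sum (23.9 CPM in WT and 68.1 CPM in N-LKO livers on average), Krt19 was not called (adjusted p = 0.428 by edgeR), and Krt7 averaged 0.362 and 0.357 CPM and was not tested. No listed marker of these groups was at 0 in all mice. Their part in the results below was not tested. Macrophage and endothelial marker sums overlapped between genotypes, and none of their markers was called by edgeR or DESeq2 or had an unadjusted p under 0.05.

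Mup mRNA was more abundant in N-LKO livers, with higher counts for most but not all genes of the cluster. The genes share sequence, as described below, so counts of single genes depend on how reads were split among the copies. Of the 20 Mup genes, 12 were called and all 12 rose (Mup1, Mup2, Mup7, Mup8, Mup10, Mup11, Mup12, Mup13, Mup14, Mup15, Mup16 and Mup22). The median log2 fold change of the 20 genes was 1.79, against -0.0033 for all genes tested, and single genes ranged from -0.07 to 3.06. At an unadjusted p under 0.05 there were 17 Mup genes, all higher in N-LKO, where the share of all genes tested was 12.8% in either direction. In 15 Mup genes every N-LKO liver was above every WT liver. Such separation was seen in 7.52% of all genes tested, and in 4.2% with N-LKO higher. DESeq2 called 15 Mup genes, where it called 2.28% of the genes to which it gave an adjusted p. By limma-voom 9 were called, where it called 126 of all 14214 genes tested. The number called by edgeR was 6 without WT replicate 2, 6 without WT replicate 3, 4 without WT replicate 4 and 6 without N-LKO replicate 3. Over all genes tested, the same fits called 83, 91, 71 and 76, against 148 with all mice. Mup1, Mup7, Mup12 and Mup14 were called in all 17 alternative fits. Of the 8 fits without 1 mouse, 7 called Mup8 and Mup11, 4 called Mup2 and Mup16, 3 called Mup13 and Mup22, and 2 called Mup10 and Mup15.

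**Figure D1:**
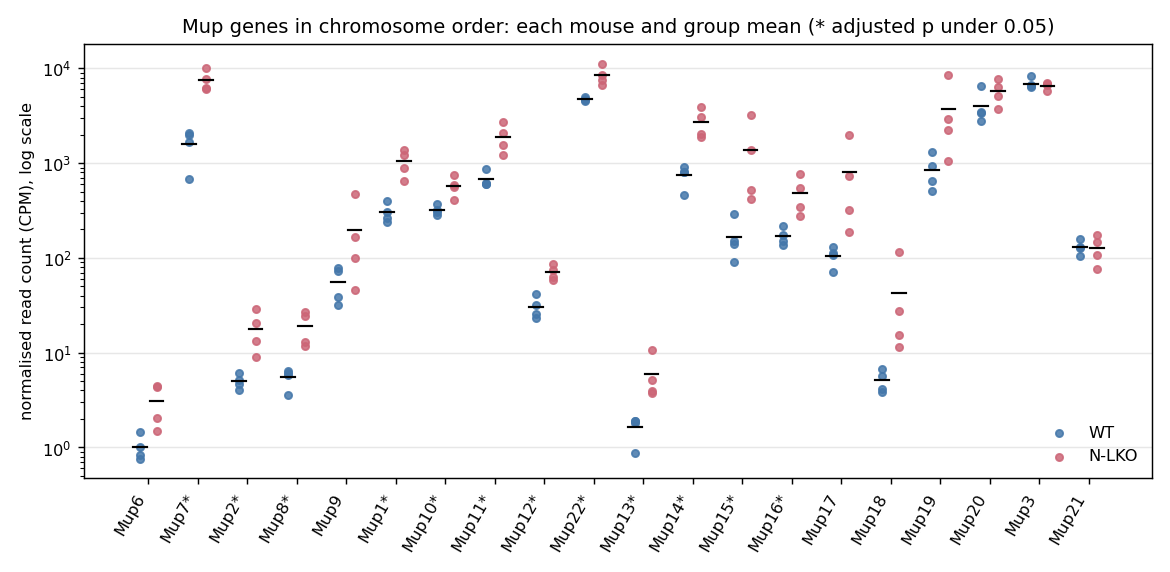
Normalised read count (CPM, log scale) of each of the 20 Mup genes in chromosome order, with 1 point per mouse, WT in blue and N-LKO in red, and a bar at each group mean. The points of the genotypes separate in 15 genes, while those of Mup3, Mup20 and Mup21 at the right end overlap.

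The cluster lies on chromosome 4 of GRCm38 from 59964294 to 62150863, a span of 2187 kb, with 19 of the genes on the minus strand and Mup6 on the plus strand. The Mup transcripts are so alike that short reads often cannot be placed on 1 gene. In GENCODE M21, all 75-base windows of the Mup15, Mup19 and Mup22 transcripts occur in another Mup gene as well. For the other genes called, between 57.8% (Mup1) and 88.5% (Mup13) of windows did. The genes with the least shared sequence were Mup6 (0%), Mup3 (5.44%), Mup21 (10.3%) and Mup20 (43.6%). The study's methods give both 45 cycles and a length of 75 bases for the reads. With 45-base windows these shares were 7.85%, 16.2%, 21.8% and 51.9%, so Mup20 then passes 50%. All 20 Mup genes had a deposited count with decimals in at least 1 mouse, and 11 had one in every mouse. The split of reads among the 16 genes that share at least 50% of windows is therefore uncertain, and their sum is given beside the single values.

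RefSeq promoters (GRCm38.p6) were matched for 13 of the 20 Mup genes. They are shown because many of the copies also resemble each other upstream. In 10 of the 13, the letters TATATAA lie within the 250 bases before the RefSeq start, which holds for 2.45% of 27025 genes. The called genes Mup1, Mup7, Mup8, Mup11, Mup12, Mup13, Mup14, Mup16 and Mup22 have no such window here. The windows below run from 110 bases before TATATAA to its end, on the strand of the gene. Capitals mark the A-rich stretch between CCCATA and CTGAA.

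Mup15 (chr4:61439723-61439839, minus strand): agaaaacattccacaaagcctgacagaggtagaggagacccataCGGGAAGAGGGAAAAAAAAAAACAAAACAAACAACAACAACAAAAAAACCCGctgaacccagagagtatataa
Mup10 (chr4:60582179-60582295, minus strand): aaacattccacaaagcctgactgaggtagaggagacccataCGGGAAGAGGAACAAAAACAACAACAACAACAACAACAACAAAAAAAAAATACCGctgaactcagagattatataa
Mup18 (chr4:61674116-61674232, minus strand): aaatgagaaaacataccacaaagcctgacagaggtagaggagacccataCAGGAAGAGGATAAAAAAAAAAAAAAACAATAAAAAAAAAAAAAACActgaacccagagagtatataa
Mup6 (chr4:60003342-60003458, plus strand): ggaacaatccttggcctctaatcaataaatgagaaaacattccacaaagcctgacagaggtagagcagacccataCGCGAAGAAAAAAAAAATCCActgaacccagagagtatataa
Mup3 (chr4:62087322-62087438, minus strand): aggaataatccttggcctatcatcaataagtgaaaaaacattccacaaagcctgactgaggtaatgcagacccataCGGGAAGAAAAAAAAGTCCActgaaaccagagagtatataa
Mup21 (chr4:62150843-62150959, minus strand): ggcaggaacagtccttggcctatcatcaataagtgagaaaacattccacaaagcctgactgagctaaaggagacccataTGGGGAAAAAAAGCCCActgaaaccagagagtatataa

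The stretch is 52 bases long in Mup15 and 47 in Mup18, and 57 in Mup2, the longest of the 10. It is 21 bases in Mup6, 20 in Mup3 and 17 in Mup21, which are also the genes with the least shared transcript sequence among those with a window. The windows of Mup15 and Mup19 are identical. Identity to the Mup15 window was 87.6% for Mup10 and 85.2% for Mup18. It was lower for Mup6 (56.1%), Mup3 (52.3%) and Mup21 (49.3%). None of the 13 Mup promoters holds the STAT5 letters TTCNNNGAA from 250 bases before to 50 after the RefSeq start, which says only that these letters are not in this window.

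Summed over the 20 genes, Mup mRNA was at 20780, 18290, 24700 and 19550 CPM in WT livers. In N-LKO livers it was at 57330, 29800, 42910 and 35580 CPM. The lowest N-LKO liver stood above the highest WT liver, and N-LKO livers differed among themselves more than WT livers did (41410 ± 11890 against 20830 ± 2774 CPM, SD, n = 4). The ratio of means was 1.99, or 0.99 on the log2 scale, and without N-LKO replicate 1, the highest, it was 0.79 on the log2 scale. As a share of all counts, Mup genes took 1.80% to 2.53% in WT and 3.05% to 5.44% in N-LKO livers. A sum over chosen members is given as a description, with no p.

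Most of the summed difference lay in the closely related copies. The 16 genes with at least 50% of windows shared summed to 11520, 8253, 9826 and 9393 CPM in WT livers and to 45400, 19040, 29130 and 22190 CPM in N-LKO livers. The groups did not overlap, and the ratio of means was 2.97. The 4 genes with less shared sequence (Mup3, Mup6, Mup20 and Mup21) summed to 9262, 10040, 14880 and 10160 CPM in WT and to 11930, 10760, 13780 and 13390 CPM in N-LKO livers. These overlapped, at a ratio of means of 1.12 (0.17 on the log2 scale). With 45-base windows Mup20 leaves this group, and the other 3 genes summed to 6444 to 8380 CPM in WT and 5979 to 7021 CPM in N-LKO livers, a ratio of 0.952 that turns the direction. The 17 genes then above 50% had a ratio of 2.52 and did not overlap. The 4 genes of the 75-base division made up 44.6% to 60.2% of Mup counts in WT livers and 20.8% to 37.6% in N-LKO livers. The division at 50% was chosen with the values known.

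**Figure D2:**
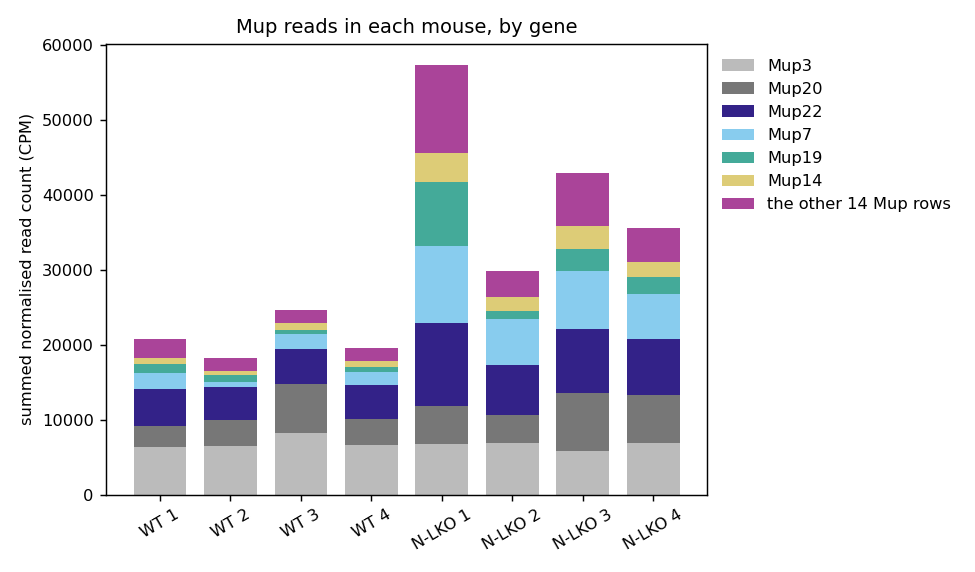
Summed normalised read count (CPM) of the Mup genes in each of the 8 mice, with the 6 genes highest in mean level as separate bar segments and the other 14 genes together. The Mup3 segment is of like height in all mice, while the whole bar is 18290 to 24700 CPM in WT and 29800 to 57330 CPM in N-LKO livers.

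Mup7, on chromosome 4 from 60066469 to 60070475, gave the largest part of the summed gain, 28.9%. It was at 2083, 678, 1968 and 1673 CPM in WT livers and at 10180, 6193, 7788 and 6039 CPM in N-LKO livers. All N-LKO livers were above all WT livers, and WT replicate 2 was the lowest. The log2 fold change was 2.24 (SE 0.318, adjusted p = 0.00844 by edgeR), and it ranged from 1.98 to 2.39 with each mouse left out.

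Mup22 (60817589 to 60821463) gave 18.2% of the gain with a smaller fold. Its 4 WT livers were close to each other at 4931, 4479, 4773 and 4651 CPM, while the N-LKO livers were at 11200, 6638, 8494 and 7473 CPM. The genotypes did not overlap, and the log2 fold change was 0.84 (SE 0.158, adjusted p = 0.0318 by edgeR). Adjusted p rose to as much as 0.114 with 1 mouse left out. Since every window of its transcript occurs in another Mup gene, its level rests on how the counting placed shared reads.

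Mup14 (61300023 to 61304000) was at 815, 461, 902 and 806 CPM in WT livers and at 3899, 1866, 3066 and 2012 CPM in N-LKO livers. No N-LKO liver fell within the WT range, and the log2 fold change was 1.86 (SE 0.266, adjusted p = 0.00844 by edgeR). Mup19 (61778324 to 61782269) was at 1296, 939, 513 and 644 CPM in WT livers and at 8585, 1044, 2934 and 2256 CPM in N-LKO livers. Here N-LKO replicate 2 lay inside the WT range and N-LKO replicate 1 far above the other mice. Mup19 was not called, at a log2 fold change of 2.13 (SE 0.55, adjusted p = 0.119 by edgeR), and its value without N-LKO replicate 1 was 1.29.

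Mup11 was at 871, 607, 601 and 615 CPM in WT livers and at 2705, 1214, 2058 and 1567 CPM in N-LKO livers. Mup1 was at 399, 242, 267 and 303 CPM in WT livers and at 1390, 654, 1228 and 894 CPM in N-LKO livers. Both separated fully, with log2 fold changes of 1.49 for Mup11 (SE 0.228) and 1.78 for Mup1 (SE 0.232). Mup1 had the smallest adjusted p of the Mup genes, 0.00532 by edgeR, and Mup11 had 0.012.

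Mup10 was at 370, 309, 318 and 287 CPM in WT livers and at 752, 413, 593 and 562 CPM in N-LKO livers. Mup16 was at 217, 176, 136 and 152 CPM in WT livers and at 769, 275, 548 and 346 CPM in N-LKO livers. In both genes the lowest N-LKO liver, replicate 2, was still above the highest WT liver, replicate 1. Mup10 had the second smallest fold among the called genes, at 0.85 on the log2 scale (SE 0.159, adjusted p = 0.0309 by edgeR), and Mup16 was at 1.51 (SE 0.284, adjusted p = 0.033).

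Mup15, Mup17 and Mup18 lie close together in the cluster and had the largest folds of the 20, with log2 fold changes of 3.04 (SE 0.62), 2.94 (SE 0.621) and 3.06 (SE 0.683). Mup16, which lies between Mup15 and Mup17, was at 1.51 on the log2 scale. Mup15 was at 288, 139, 151 and 91.1 CPM in WT livers and at 3189, 420, 1370 and 517 CPM in N-LKO livers. Mup15, Mup17 and Mup18 all separated by genotype, with N-LKO replicate 1 above the other N-LKO mice in each. Mup15 was called (adjusted p = 0.0496 by edgeR), while Mup17 and Mup18 missed the threshold (adjusted p = 0.0564 and 0.0704). Leaving out N-LKO replicate 1 gave log2 fold changes of 2.20, 1.96 and 1.83, and then Mup18 alone of the 3 was called (adjusted p = 0.0659, 0.0573 and 0.0243 by edgeR).

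Mup12, Mup2, Mup8 and Mup13 were called from lower levels than the rest. Mup12 was at 25.4, 23.4, 31.8 and 41.6 CPM in WT livers and at 85.7, 59.1, 74.4 and 63.3 CPM in N-LKO livers, a log2 fold change of 1.21 (SE 0.178, adjusted p = 0.0102 by edgeR). Mup2 was at 5.13, 4.00, 4.69 and 6.07 CPM in WT livers and at 28.9, 9.11, 20.4 and 13.4 CPM in N-LKO livers. All N-LKO livers were above the WT livers in both genes, and the Mup2 log2 fold change was 1.85 (SE 0.312, adjusted p = 0.0186). Mup8 was at 5.82, 3.56, 6.40 and 6.13 CPM in WT livers and at 24.4, 12.9, 26.7 and 11.8 CPM in N-LKO livers. Mup13, the lowest of the called genes, was at 1.92, 0.876, 1.90 and 1.82 CPM in WT livers and at 10.7, 3.96, 5.18 and 3.80 CPM in N-LKO livers. Both separated by genotype with WT replicate 2 the lowest mouse, at log2 fold changes of 1.79 for Mup8 (adjusted p = 0.0154 by edgeR) and 1.85 for Mup13 (adjusted p = 0.0429).

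Of the remaining copies, Mup9 was at 72.9, 78.6, 32.2 and 39.1 CPM in WT livers and at 45.34 to 473 CPM in N-LKO livers. N-LKO replicate 2 fell among the WT mice and N-LKO replicate 1 was the highest. The gene was not called (log2 fold change 1.82, SE 0.597, adjusted p = 0.219 by edgeR), and its value without N-LKO replicate 1 was 0.90. Mup6, which shares none of its 75-base windows with another Mup gene, was at 1.44, 1.00, 0.761 and 0.828 CPM in WT livers and at 4.37, 2.05, 4.45 and 1.49 CPM in N-LKO livers. Its groups did not overlap, by a narrow gap between WT replicate 1 and N-LKO replicate 4. At 1.61 on the log2 scale, its difference did not pass the test (SE 0.383, adjusted p = 0.0875 by edgeR), and DESeq2 called it.

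The last 3 genes of the cluster were not called by edgeR, DESeq2 or limma-voom, and none had an unadjusted p under 0.05. Mup3 (62083476 to 62087342), the most abundant Mup gene in WT livers, was at 6339, 6445, 8221 and 6616 CPM in WT livers and at 6686, 6941, 5801 and 6844 CPM in N-LKO livers. The genotypes were interleaved, and the log2 fold change was -0.07 (SE 0.125, adjusted p = 0.867 by edgeR). Mup20 (62050234 to 62054158), which encodes the male pheromone darcin, was at 2818, 3464, 6496 and 3412 CPM in WT livers and at 5088, 3736, 7801 and 6438 CPM in N-LKO livers. Every N-LKO liver was above 3 of the WT livers, but WT replicate 3 was the second highest of all mice, and the log2 fold change was 0.51 (SE 0.281, adjusted p = 0.494). Mup21 was at 104 to 159 CPM in WT and at 77.2 to 174 CPM in N-LKO livers, a log2 fold change of -0.03 (SE 0.218, adjusted p = 0.974). The sign of the Mup3 value turned without WT replicate 3 (0.02), and that of Mup21 in 3 of the 8 fits without 1 mouse.

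**Figure D3:**
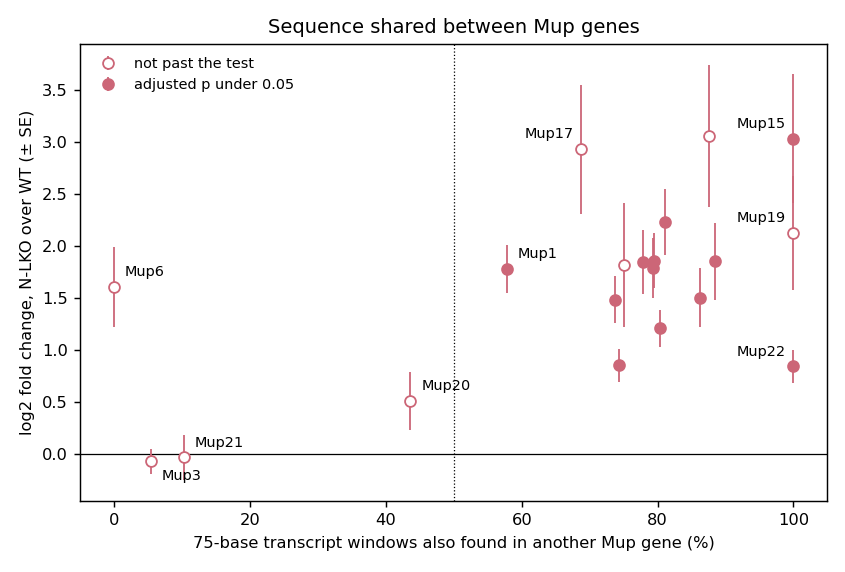
Log2 fold change of N-LKO over WT (± SE) of each Mup gene against the percentage of its 75-base transcript windows that also occur in another Mup gene, with filled points for genes past the test and a dotted line at 50%. The 16 genes to the right of the line lie between 0.84 and 3.06, and of the 4 to the left Mup6 stands at 1.61 and the others at 0.51 or less.

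Compared per kb of exon, the order of the Mup levels differed between the genotypes. In WT livers the highest mean levels per kb were 6465 CPM for Mup3, 5469 CPM for Mup22, 4361 CPM for Mup20 and 1550 CPM for Mup7. In N-LKO livers they were 9815 CPM for Mup22, 7310 CPM for Mup7, 6213 CPM for Mup20 and 6150 CPM for Mup3. Mup20 and Mup3 were next to each other in that order, and their levels overlapped between N-LKO mice. The share of Mup counts given to Mup7 was 3.71% to 10.03% in WT and 16.97% to 20.8% in N-LKO livers. At 75 bases, 81.1% of Mup7 windows and 100% of Mup22 windows occur in another Mup gene. Their place in the order therefore rests on how the counting placed shared reads.

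The N-LKO mice held a common order over most of the closely related copies, but not over the whole cluster. N-LKO replicate 1 was the highest N-LKO mouse for 15 of the 20 Mup genes, and N-LKO replicate 2 the lowest for 15. Replicate 1 was not the highest for Mup8 or for the less shared genes Mup3, Mup6, Mup20 and Mup21. For Mup3, N-LKO replicate 2 was the highest (6941 CPM) and replicate 3 the lowest (5801 CPM). Genes that share reads do not count separately here. The coefficient of variation among N-LKO mice was above 90% for Mup9, Mup15, Mup17, Mup18 and Mup19, and it was lowest for Mup3 (7.95%). Among WT mice it was 4.06% for Mup22 and 50.5% for Mup15, the lowest and highest of the 20.

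Genes around the cluster were not called. Of 23 tested genes within 1 Mb outside the Mup genes, none was called by edgeR or DESeq2 and none had an unadjusted p under 0.05, with a median log2 fold change of -0.08. Another 3 genes lie between the outermost Mup genes and none was called by either tool. Of these, 2 had an unadjusted p under 0.05, Gm13775 with a log2 fold change of 1.54 (SE 0.468, adjusted p = 0.18 by edgeR) and Gm13773 with 0.94 (SE 0.374, adjusted p = 0.321). Of 9 Mup pseudogene rows, 4 passed the filter and all 4 had positive log2 fold changes. Mup-ps13 was called at 2.43 (adjusted p = 0.00844 by edgeR), from 0.127 to 0.267 CPM in WT and 0.883 to 1.39 CPM in N-LKO livers. Mup-ps8 was at 0.221 to 0.625 CPM in WT and 0.929 to 2.38 CPM in N-LKO livers. Both passed the filter through their N-LKO counts alone, so their positive direction is partly a result of the filter. How much sequence the pseudogenes share with Mup genes was not counted.

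**Figure D4:**
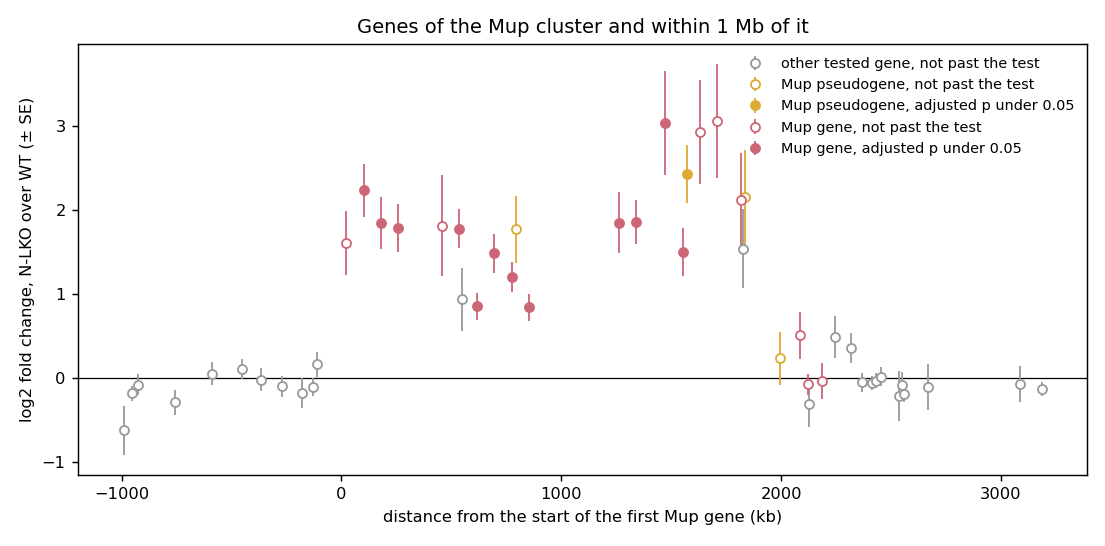
Log2 fold change of N-LKO over WT (± SE) of the tested genes in and within 1 Mb of the Mup cluster, against distance in kb from the start of the first Mup gene, with filled points for genes past the test. The first 17 Mup genes lie between 0.84 and 3.06, while the last 3 and the genes outside the cluster lie between -0.62 and 0.51.

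Among the 21 GH-STAT5 genes, Selenbp2 alone was called, against 1.04% of all genes tested. The median log2 fold change was 0.08, with 13 genes above and 8 below 0. At an unadjusted p under 0.05 there were 6 of the 21, where the share of all genes tested was 12.8%. These were Selenbp2, Cyp7b1, Serpina1e, Hsd3b5 and Cyp4a12b, with higher values in N-LKO livers, and Igfbp3, with lower values. DESeq2 called 3 (Selenbp2, Cyp7b1 and Serpina1e) and limma-voom called none.

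The GH receptor, its kinase and the STAT5 genes did not differ beyond their spread. Ghr, on chromosome 15 from 3317760 to 3583492, was at 271, 317, 311 and 350 CPM in WT livers and at 294, 263, 291 and 338 CPM in N-LKO livers. The mice of both genotypes were interleaved, with a log2 fold change of -0.08 (SE 0.101, adjusted p = 0.818 by edgeR). Stat5b, the main STAT5 of hepatocytes, was at 49.2, 45.03, 28.8 and 39.6 CPM in WT livers and at 39.3, 33.0, 33.8 and 35.4 CPM in N-LKO livers. The N-LKO range lay within the WT range, and the log2 fold change was -0.20 (SE 0.144, adjusted p = 0.613). Jak2 had a log2 fold change of 0.11 (SE 0.0904), with 15.5 to 18.1 CPM in WT and 17.04 to 20.3 CPM in N-LKO livers. Stat5a was at 6.38 to 8.37 CPM in WT and 6.73 to 8.76 CPM in N-LKO livers, a log2 fold change of 0.03 (SE 0.133) that was -0.002 with library totals in place of TMM. Stat5a exons overlap those of Stat3 on the other strand, and whether counting used strand was not stated. None of these 4 genes was called by DESeq2 or limma-voom, or had an unadjusted p under 0.05.

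Socs2 and Cish, the feedback inhibitors, varied within each genotype. Socs2 was at 24.2, 13.6, 9.57 and 20.5 CPM in WT livers and at 10.9, 21.2, 22.4 and 9.78 CPM in N-LKO livers. Both genotypes covered the same range, with a log2 fold change of -0.09 (SE 0.323, adjusted p = 0.945 by edgeR). Cish was at 3.85, 1.56, 5.33 and 1.38 CPM in WT livers and at 2.04, 1.78, 2.72 and 1.29 CPM in N-LKO livers. Both WT replicates 1 and 3 were above all N-LKO livers and the other WT livers were not, and the log2 fold change was -0.62 (SE 0.422, adjusted p = 0.591). Cish exons overlap the antisense gene Gm17041, so their reads cannot be told apart without strand.

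Of the 15 GH-STAT5 genes with a RefSeq promoter, 3 hold TTCNNNGAA, the letters STAT5 dimers bind, in the same window around the RefSeq start, and 9.55% of 27025 genes do. The letters read alike on both strands. They are shown here with 10 bases on each side, the letters in capitals, as they occur in these members, with the match nearest to a start for Bcl6 (of 4) and Igfals (of 2). A match is a description and no evidence of binding.

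Cish, first (chr9:107296659-107296667, plus strand): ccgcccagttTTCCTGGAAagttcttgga
Cish, second (chr9:107296670-107296678, plus strand): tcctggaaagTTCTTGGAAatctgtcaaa
Bcl6 (chr16:23981363-23981371, minus strand): atcgactacgTTCCGGGAAtgagagggct
Igfals (chr17:24878173-24878181, plus strand): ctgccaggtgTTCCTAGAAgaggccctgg

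Both Cish matches lie within the first bases of the transcript as RefSeq starts it, 11 bases apart. The Bcl6 and Igfals matches shown lie 88 and 58 bases before a RefSeq start.

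Igf1, the growth factor that GH induces in liver, was at 552, 408, 651 and 653 CPM in WT livers and at 500, 626, 633 and 642 CPM in N-LKO livers. The genotypes overlapped over most of their range, with a log2 fold change of 0.08 (SE 0.148, adjusted p = 0.872 by edgeR). Igfals, the acid-labile subunit that stabilises circulating IGF1, was at 10.8 to 27.8 CPM in WT and 11.5 to 16.0 CPM in N-LKO livers, a log2 fold change of -0.46 (SE 0.291, adjusted p = 0.555). Igfbp3, the main carrier protein of IGF1 in blood, was at 17.7, 18.1, 19.3 and 16.9 CPM in WT livers and at 8.90 to 17.1 CPM in N-LKO livers. Only N-LKO replicate 2 reached the WT range, but the log2 fold change of -0.51 did not pass the test (SE 0.169, adjusted p = 0.224).

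The repressor gene Bcl6 was at 9.67, 55.3, 7.16 and 48.0 CPM in WT livers and at 9.81, 29.6, 13.1 and 67.6 CPM in N-LKO livers. In each genotype replicates 2 and 4 were above replicates 1 and 3, and the group means were almost equal, with a log2 fold change of -0.0043 (SE 0.706, adjusted p = 0.999 by edgeR). Cux2, a repressor more abundant in female liver, was low at 0.588, 0.876, 0.571 and 1.44 CPM in WT livers and 0.624, 1.12, 2.06 and 0.815 CPM in N-LKO livers. Its genotypes overlapped (log2 fold change 0.39, SE 0.43, adjusted p = 0.769). Neither gene had an unadjusted p under 0.05, and neither was called by DESeq2 or limma-voom.

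Selenbp2, which encodes a selenium-binding protein of male-biased expression, rose the most among the GH-dependent targets. It lies on chromosome 3 from 94693556 to 94704413. It was at 15.5, 5.38, 15.2 and 12.4 CPM in WT livers and at 42.0, 21.7, 67.7 and 65.9 CPM in N-LKO livers. Every N-LKO liver was above every WT liver, with the replicate 2 mice the lowest of both genotypes. The log2 fold change was 2.02 (SE 0.376, adjusted p = 0.0309 by edgeR). Leaving out any 1 mouse other than N-LKO replicate 2 took the adjusted p above 0.05, up to 0.0974, at log2 fold changes of 1.78 or more. In the annotation 27.6% of its 75-base windows and 47.6% of its 45-base windows occur in another gene.

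Cyp7b1, an oxysterol hydroxylase of the alternative bile acid pathway, was at 77.3, 29.5, 77.5 and 75.5 CPM in WT livers and at 162, 93.9, 278 and 172 CPM in N-LKO livers. Its genotypes did not overlap, and the log2 fold change of 1.44 did not pass the test (SE 0.343, adjusted p = 0.0875 by edgeR). DESeq2 called it (adjusted p = 0.0448), and over all settings with all mice the adjusted p ranged from 0.0061 to 0.117. None of its windows occurs in another gene.

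Serpina1e, an alpha-1 antitrypsin family member, was at 4155, 3020, 3357 and 3474 CPM in WT livers and at 5848, 4091, 5980 and 6984 CPM in N-LKO livers. N-LKO replicate 2 lay just below WT replicate 1 and the other N-LKO livers above all WT livers, at a log2 fold change of 0.71 (SE 0.167, adjusted p = 0.0847 by edgeR). Hsd3b5, a steroid dehydrogenase of male liver, was at 1.12 to 1.90 CPM in WT livers and at 3.29, 0.858, 4.84 and 3.53 CPM in N-LKO livers. Here too N-LKO replicate 2 was apart from the other N-LKO mice, below all WT livers, and the log2 fold change was 1.21 (SE 0.419, adjusted p = 0.24). For Serpina1e, 19.7% of 75-base windows and 39.0% of 45-base windows occur in another gene. For Hsd3b5 these shares are 11.7% and 23.8%. Without N-LKO replicate 2, 4 of the 21 genes were called: Selenbp2, Cyp7b1, Serpina1e and Hsd3b5. That fit called 173 of 14452 genes tested, the most of the fits without 1 mouse. Each other fit without 1 mouse called 0 of the 21.

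Among the paired fatty acid hydroxylases, Cyp4a12b was at 55.0 to 117 CPM in WT and 87.1 to 186 CPM in N-LKO livers, a log2 fold change of 0.70 (SE 0.255, adjusted p = 0.269 by edgeR). Cyp4a12a was at 116 to 237 CPM in WT and 134 to 280 CPM in N-LKO livers, a log2 fold change of 0.09 (SE 0.253, adjusted p = 0.922). For Cyp4a12a and Cyp4a12b, 40.8% and 41.3% of 75-base windows and 51.9% and 52.5% of 45-base windows occur in another gene, so reads of the pair may have been exchanged by the counting.

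The remaining targets overlapped between genotypes and were not called. Elovl3, a fatty acid elongase, was at 30.1 to 131.8 CPM in WT and 57.6 to 143 CPM in N-LKO livers and differed by 0.49 on the log2 scale (SE 0.43). Slco1a1, an organic anion transporter, stood at 0.06 (SE 0.156) on the log2 scale. Serpina3k, a serine protease inhibitor and the most abundant of the 21 genes, was at 9403 to 11400 CPM in WT and 10650 to 13960 CPM in N-LKO livers, at 0.25 (SE 0.128) on the log2 scale. Its exons overlap those of Serpina3m by 60 bases on the same strand. Egfr, the epidermal growth factor receptor, was at 292 to 621 CPM in WT and 259 to 448 CPM in N-LKO livers, a log2 fold change of -0.21 (SE 0.222). None of these 4 genes had an unadjusted p under 0.05.

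**Figure D5:**
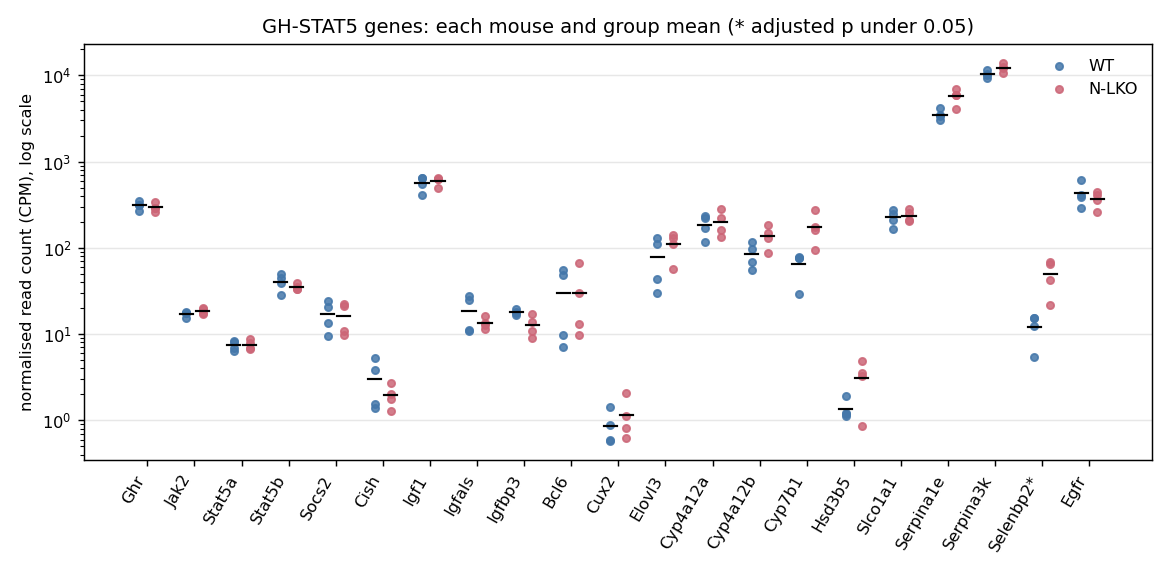
Normalised read count (CPM, log scale) of each of the 21 GH-STAT5 genes, with 1 point per mouse, WT in blue and N-LKO in red, and a bar at each group mean. Selenbp2 and Cyp7b1 separate by genotype, while Ghr, Jak2, Stat5a, Stat5b, Socs2 and Igf1 overlap.

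Other genes of the pathway, in 5 lists of 122 genes of which 105 were tested, held 1 called gene against 1.04% of all genes tested, with a median log2 fold change of 0.03. The called gene was Igfbp7, a secreted protein related to the IGF binding proteins, at 26.1 to 29.6 CPM in WT and 32.9 to 54.3 CPM in N-LKO livers (log2 fold change 0.68, SE 0.133, adjusted p = 0.0393 by edgeR). At an unadjusted p under 0.05 there were 23 of the 105, 16 higher and 7 lower, where the shares of all genes tested were 12.8% in either direction, 6.87% higher and 5.9% lower. DESeq2 called 5, among them Igfbp7, Tox, Ugt2b1 and Cyp3a41a, and limma-voom none.

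By list, 26 GH signalling and IGF partners were tested with 1 called by edgeR and 2 by DESeq2, and 7 had an unadjusted p under 0.05 (3 higher and 4 lower). The largest values by size belonged to Igfbp1 at -1.01 (SE 0.596) and Socs3 at -0.84 (SE 0.506) on the log2 scale. Of 18 transcription factors of the GH response none was called, 3 had an unadjusted p under 0.05, and Tox was at -0.54 (SE 0.138) on the log2 scale. Of 17 further male-biased genes none was called, 5 had an unadjusted p under 0.05 and all 5 were above 0, led by Ugt2b38 at 0.86 (SE 0.318) and Ugt2b1 at 0.64 (SE 0.158). Of 26 female-biased genes none was called and 6 had an unadjusted p under 0.05, all above 0, led by Sult1e1 at 3.14 (SE 0.925, adjusted p = 0.171 by edgeR) and Ntrk2 at 1.36 (SE 0.441). Of 19 STAT5 and cytokine targets outside the male-biased genes none was called and 2 had an unadjusted p under 0.05, Junb at -1.02 (SE 0.412) and Gbp2 at -0.72 (SE 0.233). The counts at an unadjusted p stand beside the 12.8% of all genes tested given above. Beside the counts of 0, DESeq2 called 1 gene in each of the transcription factor, male-biased and female-biased lists and none in the cytokine list. Sult1e1, an estrogen sulfotransferase, was at 0.107, 1.13, 0.0634 and 0.166 CPM in WT livers and at 5.44, 0.066, 4.05 and 3.06 CPM in N-LKO livers, and N-LKO replicate 2 was again apart from the other N-LKO mice.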

How the data were processed

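RNA from 8 livers (4 WT and 4 N-LKO, by the genotype labels) was sequenced, 1 library per mouse. For the authors' own processing, the methods name in-house trimming, TopHat2 and cuffdiff. The submitters' processing notes name STAR, Partek and mm9, with no roles, while the deposited coordinates match GRCm38 (99.0% of 19193 rows shared with GENCODE M21 have the same start and, less 1, the same end). The counting program and annotation are not given in the sources used here. The methods name a small RNA library kit, and 45 cycles beside a read length of 75 bases. The authors deposited expected counts, that is 1 estimate of reads for each gene and mouse, not scaled to depth. Of the rows, 46.4% held a decimal value in at least 1 mouse.

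Counts were rounded, filtered with edgeR 4.0.16 filterByExpr (minimum count 10, minimum total 15), scaled by TMM and tested by genotype alone (glmQLFit, glmQLFTest, R 4.3.3), with Benjamini-Hochberg adjustment over all genes tested. SD and n are over mice. The scripts were tested on simulated data. Libraries differed by more than sampling noise in all 28 pairs (chi-square per degree of freedom 11.9 to 69.5). Over all genes tested, replicate numbers in the titles showed no pairing of mice (correlations of deviations -0.0853 to 0.0625), nor did the numbers in the library names (-0.00936 to 0.166). This check cannot exclude a pairing that touches few genes. Nothing states whether mice shared litters or cages.

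The members, pathway lists, markers and alternatives were chosen with earlier results of these data known. Named genes were all members, called genes of the pathway lists and, otherwise, the 2 largest differences of a list at a mean of at least 1 CPM. The results for 2 genes of the pathway lists are not reported here. Genes between the outermost Mup genes, the pseudogenes and the division of Mup genes by shared sequence were added after values were seen. Shared windows were counted over GENCODE M21 transcripts at 75 bases, and at 45. Alternatives were RLE scaling, library totals, TMM without the Mup rows, a minimum of 10 counts in every mouse, no filter, 2 replicate blocks, DESeq2 1.42.0, limma-voom (limma 3.58.1), each mouse left out, and other sums.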

Additional observations from a re-analysis of the deposited data

Results flagged for a closer look

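In 86 groups of 4 mice (the 41 members, Nus1 and the Mup sum, in each genotype), 9 held a mouse set apart from the other 3 by Dixon's criterion, where chance gives about 4.3. All values are log2 CPM. Of these, 5 were in Mup genes of WT mice. WT replicate 2 was low for Mup8 (1.88, the others 2.57 to 2.71), Mup13 (0.00, the others 0.96 to 1.03) and Mup14 (8.85, the others 9.65 to 9.82). WT replicate 1 was high for Mup11 (9.77, the others 9.23 to 9.27), and WT replicate 3 was high for Mup3 (13.01, the others 12.63 to 12.69).

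WT replicate 2 was also low for Cyp7b1 (4.89, the others 6.24 to 6.28). WT replicate 3 was high for Hsd3b5 (1.02, the others 0.32 to 0.42), and N-LKO replicate 1 was low for Igf1 (8.97, the others 9.29 to 9.33). For Nus1, WT replicate 1 was low (6.36, the other WT mice near 6.49). WT replicate 2 was the lowest WT mouse for 9 of the 20 Mup genes and 11 of the 21 GH-STAT5 genes.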

How the results depend on the processing

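Of 12 Mup genes called, settings with all mice gave 9 to 15 and fits without 1 mouse 4 to 15. Over all genes, fits without 1 mouse called 71 to 173. The log2 difference of the Mup sum stayed between 0.79 and 1.12 without 1 mouse and at 0.95 with library totals, and was 1.32 without Mup3. With 45-base in place of 75-base windows, an alternative chosen after seeing the data, the log2 difference of the less shared Mup genes turned from 0.17 to -0.071, since Mup20 left them, and that of the more shared genes was 1.33. With the replicate number as a block, the log2 difference of the sum over all 20 Mup genes was 0.96. With that block, 2 GH-STAT5 genes (Selenbp2 and Cyp7b1) and 3 pathway-list genes were called in place of 1 each. With the library number as a block, 0 GH-STAT5 genes were called. The blocked fits called 131 and 113 of all genes, and the numbers showed no pairing over all genes tested. DESeq2 called 387 of all genes, 3 of the GH-STAT5 genes and 5 of the pathway lists. By limma-voom 126 of all genes were called, and 0 of both these sets. Fits without 1 mouse gave 0 to 4 GH-STAT5 genes (4 without N-LKO replicate 2, otherwise 0) and 0 to 2 pathway-list genes. For the pathway lists RLE scaling, TMM without the Mup rows and no filter each gave 2, and library totals and at least 10 counts in every mouse each gave 0. The causes were not tested.

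The Bcl6 log2 fold change turned to 0.0874 with the replicate block, 0.0862 with the library number block and 0.094 with limma-voom, and Stat5a to -0.002 with library totals. Without 1 mouse, uncalled values changed sign for Mup3 (-0.1114 to 0.0219), Mup21 (-0.2195 to 0.1485), Stat5a (-0.0437 to 0.0946), Socs2 (-0.2928 to 0.1307), Igf1 (-0.0449 to 0.1617), Bcl6 (-0.7831 to 0.4637), Cux2 (-0.0389 to 0.7552), Cyp4a12a (-0.1157 to 0.2441), Slco1a1 (-0.0565 to 0.1793) and Egfr (-0.3545 to 0.0269). Cux2 had no value at 10 counts in every mouse. Depth limits Mup6, Mup13, Cux2, Hsd3b5, Sult1e1 and the called pseudogene Mup-ps13 most, and shared sequence limits the split among Mup genes.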
